A study of Mus musculus with 3 samples.

Results

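The genes described here are 8 genes of the hypoxia response in the mouse: the regulators *Hif1a*, *Epas1*, *Arnt*, *Egln1*, *Egln2*, *Egln3* and *Vhl*, and the target *Vegfa*. They were taken from a list of names, out of 21938 protein-coding genes of the GENCODE mm10 annotation, and a gene was given every peak that met its annotated extent or came within 50 kb of it. Binding of Ad4BP/SF-1, the nuclear receptor encoded by *Nr5a1* that drives steroidogenic genes, had been measured by chromatin immunoprecipitation and sequencing (ChIP-seq) in Leydig cells, the androgen-producing cells of the testis. The cells were a primary preparation from the pooled testes of 9-week-old male ICR mice, cultured on collagen-coated dishes, and 1 ChIP library was made from vehicle-treated cells and 1 from cAMP-treated cells. All animals were of the ICR strain with no engineered allele named in the labels, and the dose and time of cAMP are not given in the sources used here. An input DNA sample was not analysed here.

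Cells sense oxygen through hypoxia-inducible factors, each a pair of an oxygen-regulated alpha subunit (HIF-1α or the *Epas1* product HIF-2α) and the stable partner ARNT. When oxygen is sufficient, the prolyl hydroxylases encoded by the *Egln* genes modify the alpha subunits, and the *Vhl* product then recognises them and directs their ubiquitination and destruction. When oxygen is short, the alpha subunits persist and the pair binds hypoxia response elements near target genes such as *Vegfa*, which encodes the main growth factor for blood vessels.

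Ad4BP/SF-1 peaks lay near 4 of the 8 genes, namely *Arnt*, *Egln1*, *Egln2* and *Vhl*. *Egln1* and *Egln2* had a peak in both lists, *Arnt* only in the vehicle list and *Vhl* only in the cAMP list. Of all protein-coding genes 43.1% had a peak in either list and 22.5% in both. No peak was listed within 50 kb of *Hif1a*, *Epas1*, *Egln3* or *Vegfa* under either treatment. The 4 genes with a peak had 5 vehicle peaks and 4 cAMP peaks between them, at 7 distinct regions.

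Ad4BP/SF-1 binds DNA through a short consensus, which was searched for on both strands in the forms TCAAGGTC and TCAAGGCC or CCAAGGTC and CCAAGGCC, and a match is a description of the letters and not a shown binding site. Of the 7 regions, 4 held the consensus, and each held a single copy of the same form, TCAAGGTC. By list, 3 of the 5 vehicle peaks held it, where 80.4% of all peaks did, and 3 of the 4 from cAMP, where 77.1% did. These copies are shown first because they are where the letters the factor is known to bind lie inside peaks at the *Arnt*, *Egln1* and *Egln2* loci. They are written in the direction of the consensus with the 8 consensus bases in capitals, and were read from the RefSeq mm10 genome.
*Arnt* intron 19, chr3:95493262-95493289, minus strand: tcttgtgagtTCAAGGTCagcctggtct
*Egln1* downstream flank, chr8:124894447-124894474, plus strand: gattagaaatTCAAGGTCatccttggtt
*Egln2* downstream flank, chr7:27118892-27118919, plus strand: gttccagagtTCAAGGTCacccttagct
*Egln2* upstream flank, chr7:27175117-27175144, plus strand: ttagtttaatTCAAGGTCatgctatctc
Each of the 4 copies was followed by an A. Among the 2564 copies of TCAAGGTC in all vehicle peaks 86.7% were followed by A, and among the copies in all cAMP peaks 89.6% were, whereas of the 74 copies in the 8 gene windows as a whole 42, or 56.8%, were. Of the 4 copies 3, all except the *Egln2* upstream one, lie in bases masked as repeats in the genome. Over all vehicle peaks 36.1% of consensus copies lay in masked bases, over all cAMP peaks 40.9%, and over the 8 gene windows 109 of 309.

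The other 3 regions held no consensus. They are the 3 whose nearest protein-coding transcription start site (TSS) is that of a hypoxia gene, whereas the nearest TSS of the 4 regions with a consensus belongs to a neighbour (*Ctsk*, *Exoc8*, *Cyp2f2* or *Rab4b*). The 201 bases around the centre of each of these 3 peaks are printed on the plus strand of mm10, because they carry the binding nearest to *Arnt*, *Egln1* and *Vhl* and show what stands there in place of the consensus. Capitals mark the word that comes closest to the consensus, which matches 7 of its 8 positions on the minus strand in each of the 3.
*Arnt* intron 3, chr3:95459600-95459800: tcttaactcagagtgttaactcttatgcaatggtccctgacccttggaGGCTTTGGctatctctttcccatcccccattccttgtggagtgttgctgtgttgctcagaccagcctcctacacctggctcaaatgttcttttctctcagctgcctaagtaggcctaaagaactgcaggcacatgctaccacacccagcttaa
*Egln1* intron 1, chr8:124925703-124925903: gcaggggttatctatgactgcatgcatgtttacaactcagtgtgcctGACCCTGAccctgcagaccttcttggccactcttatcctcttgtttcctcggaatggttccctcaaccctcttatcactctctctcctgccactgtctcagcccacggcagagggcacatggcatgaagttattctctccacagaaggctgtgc
*Vhl* upstream flank, chr6:113614559-113614759: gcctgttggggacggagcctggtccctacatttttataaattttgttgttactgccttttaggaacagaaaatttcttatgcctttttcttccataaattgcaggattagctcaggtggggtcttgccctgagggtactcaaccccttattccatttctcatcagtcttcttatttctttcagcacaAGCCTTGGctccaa
Read on the minus strand, these words are CCAAAGCC at *Arnt*, TCAGGGTC at *Egln1* and CCAAGGCT at *Vhl*, with 48, 49 and 91 bp between word and peak centre. A word with 7 matching positions is common, since 93.8% of the 1122 vehicle peaks without the consensus and 84.5% of the 922 such cAMP peaks held one.

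In all, 5721 peaks were listed for vehicle, with a median score of 72.4, and 4025 for cAMP, with a median of 67.9. The score is the authors' MACS value, 10 times the negative log10 of the p-value of the peak, so a higher score stands for a clearer enrichment in that library and grows with its depth. Depth is unknown because read numbers are not part of the lists. No listed peak scored below 50, although the p-value threshold that the methods state is looser than such a score, and whether weaker peaks were removed before deposit is not stated. A gene without a peak is therefore one with no listed peak, which says nothing of weaker binding. With 1 library per condition no difference between vehicle and cAMP can be set against the spread between replicates, and every comparison below describes these libraries. A lower score can come from binding in fewer cells or from weaker binding in each, and bulk ChIP-seq cannot tell these apart. Peaks do not measure RNA, so the cell type label could not be checked by expression. Of 8 Leydig marker genes 4 had a vehicle peak and 3 a cAMP peak by the 50 kb rule, against 2 and 1 of 6 Sertoli markers, 1 and 1 of 4 macrophage markers, and 2 and 2 of 4 germ cell markers. The germ cell counts rest on 1 shared region that lies within 50 kb of both *Prm1* and *Prm2*. By the same rule 36.7% of all protein-coding genes had a vehicle peak and 28.9% a cAMP peak.

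**Figure D1:**
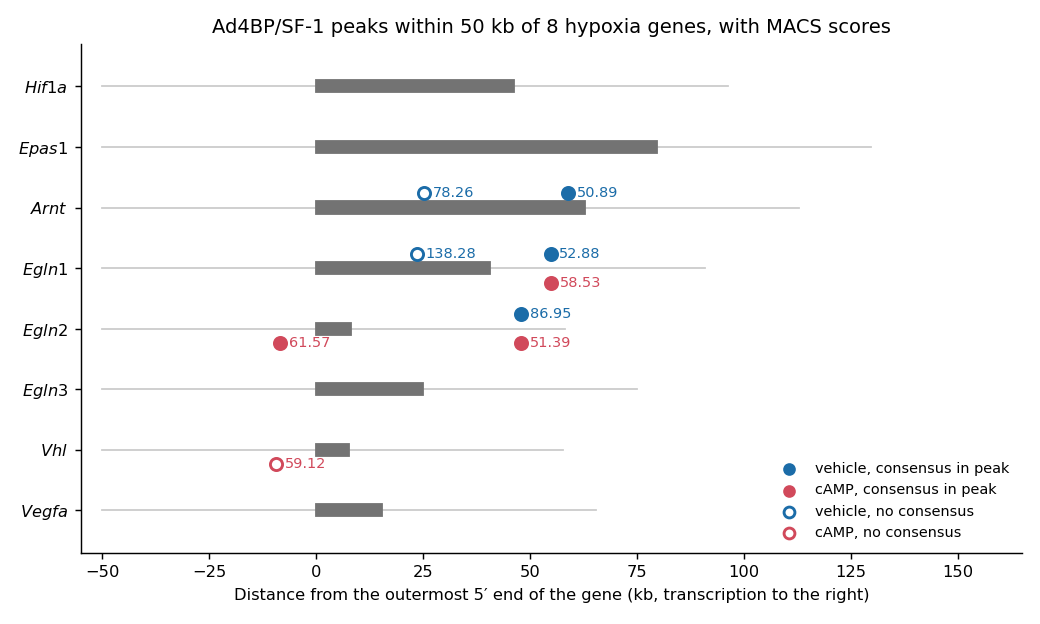
Map of the 8 genes, with distance in kb from the 5′ end (the outermost annotated one) on the x axis and transcription running to the right. Bars are gene bodies, thin lines the 50 kb flanks, circles the peak centres with their MACS scores, blue for vehicle and red for cAMP, filled where the peak holds the consensus. *Arnt* and *Egln1* have vehicle peaks inside the gene, the cAMP peaks all lie in flanks, and *Hif1a*, *Epas1*, *Egln3* and *Vegfa* have none.

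Of the subunit genes among the 8, *Arnt* had peaks and the alpha subunit genes *Hif1a* and *Epas1* had none. *Hif1a*, which encodes the broadly expressed HIF-1α, lies on the plus strand at chr12:73901375-73947530. The nearest vehicle peak was 112 kb upstream of the gene, with a score of 61.64, and the nearest cAMP peak 509 kb upstream, with a score of 65.06. The distance from the 5′ end of *Hif1a* to a vehicle peak was longer than that of 48.3% of 21755 genes. Its distance to a cAMP peak was longer than that of 76.7% of 21938. That distance, 510 kb, was the longest of any of the 8 genes in either list.

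*Epas1*, which encodes HIF-2α, is the longest of the 8 genes at 79.7 kb and lies on the plus strand at chr17:86753700-86833410, with no other protein-coding gene within 50 kb. Its nearest vehicle peak lay 114 kb upstream with a score of 61.81, and its nearest cAMP peak 73.2 kb downstream with a score of 51.99. The *Epas1* window, the longest of the 8, held 51 copies of the consensus, and it was the only one with copies within 1 kb of the 5′ end. These are printed, in the direction of the consensus with its 8 bases in capitals, because they show the factor's letters beside a promoter at which no peak was called.
*Epas1*, 655 bp upstream of the 5′ end, chr17:86753031-86753058, plus strand: gactcagaagTCAAGGTCagtttggcca
*Epas1*, 826 bp inside the gene, chr17:86754512-86754539, minus strand: tctccgtgtcTCAAGGTCtcggaactat
The upstream copy is followed by A, like the 4 copies in peaks, and the copy inside the gene by T. Over the 8 windows, 4 of 309 consensus copies, or 1.29%, lay in a peak.

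*Arnt*, which encodes the common partner of the alpha subunits, had peaks in the vehicle list. It lies on the plus strand at chr3:95434388-95497240, and 2 peaks of the vehicle list fell inside it. The peak in intron 3, chr3:95459417-95459984, was centred 25.3 kb from the 5′ end and scored 78.26, above 56.7% of the vehicle peaks. It held no consensus and 1 copy of GCGTG, a form of the core of the hypoxia response element. The peak in intron 19, chr3:95493115-95493520, was centred 58.9 kb from the 5′ end and scored 50.89, above 2.64% of the list and just over its lowest score of 50. Its TCAAGGTC, at 95493272 to 95493279 on the minus strand, lay 41 bp from the centre, and an ACGTG lay 69 bp from it. This second peak is closer to *Ctsk*, which encodes the protease cathepsin K, being 5.94 kb upstream of its TSS. The cAMP list held no peak over either region, and its nearest peak lay 139 kb downstream of *Arnt* with a score of 57.09. Counterparts were uncommon at such scores, since of the 201 vehicle peaks closest in rank to the intron 3 peak, itself included, 29.4% had an overlapping cAMP peak, and of those closest to the intron 19 peak, 13.9% had.

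Among the prolyl hydroxylases, which start the destruction of the alpha subunits, *Egln1* and *Egln2* had peaks and *Egln3* had none. *Egln1* encodes PHD2, the main oxygen sensor of the family, and lies on the minus strand at chr8:124908587-124949324. Its intron 1 held the strongest of the 9 peaks, chr8:124925486-124926121 in the vehicle list, centred 23.5 kb from the 5′ end. This peak scored 138.28, which placed it at rank 752 and above 86.9% of the vehicle peaks. It was 636 bp wide with 55.5% G and C, and 6.60% of it was masked as repeat. The cAMP list held no peak over it, and its nearest was 30.8 kb away. Of the 752 vehicle peaks with this score or a higher one 82.0% had an overlapping cAMP peak, as did 71.1% of the 201 closest in rank, and the *Egln1* peak ranked 135 among the 3554 vehicle peaks that had none.

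The other *Egln1* peak was called in both lists, 13.8 kb past the 3′ end of the gene. The vehicle peak, chr8:124894222-124894771, scored 52.88, and the cAMP peak, chr8:124894264-124894678, scored 58.53. They shared 415 bp, which is the whole of the cAMP peak, and their centres were 25 bp apart. In the vehicle list it scored above 9.56% of the peaks and in the cAMP list above 31.3%. The region lies in the 3′ untranslated region of *Exoc8*, a gene with a single exon that encodes a subunit of the exocyst, 3.21 kb from the *Exoc8* TSS and 54.8 kb from the 5′ end of *Egln1*. The TCAAGGTC printed above, at 124894457 to 124894464, lay 35 bp from the centre of the vehicle peak and 10 bp from that of the cAMP peak.

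*Egln2* encodes PHD1 and lies on the minus strand at chr7:27158658-27166802, among 8 other protein-coding genes within its window. A peak 39.4 kb past its 3′ end was called in both lists, at chr7:27118545-27119229 with a score of 86.95 in vehicle and at chr7:27118615-27119098 with a score of 51.39 in cAMP. It ranked 1972 in the vehicle list, above 65.5% of the peaks, and 3738 in the cAMP list, above 7.11%. The region is 1.02 kb upstream of the TSS of *Cyp2f2*, a cytochrome P450 gene, and 47.9 kb from the 5′ end of *Egln2*. Its TCAAGGTC, at 27118902 to 27118909, was 19 bp from the vehicle centre and 50 bp from the cAMP centre.

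A second *Egln2* peak was called in the cAMP list only, 8.03 kb upstream of the gene at chr7:27174832-27175473. With a score of 61.57 it was the highest of the 4 cAMP peaks and lay above 38.9% of that list. The nearest vehicle peak was 49.8 kb away. The region is in intron 3 of *Rab4b*, which encodes a small GTPase of endosomal recycling, 3.74 kb from the *Rab4b* TSS, and also in intron 4 of the overlapping gene model *Gm21983*. It held TCAAGGTC at 27175127 to 27175134, 21 bp from the centre, and an ACGTG 36 bp from the centre. Of the 201 cAMP peaks closest to it in rank, 45.3% had an overlapping vehicle peak.

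*Egln3*, which encodes PHD3 and is itself induced by hypoxia-inducible factors, lies on the minus strand at chr12:54178981-54203860 with no other protein-coding gene in its window. The nearest vehicle peak was 173 kb downstream with a score of 53.65 and the nearest cAMP peak 135 kb upstream with a score of 64.68. Its window held 23 copies of the consensus, none of them in a peak.

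*Vhl*, which encodes the substrate-recognition subunit of the ubiquitin ligase that acts on hydroxylated alpha subunits, had a peak in the cAMP list only. The gene lies on the plus strand at chr6:113623959-113631633, and the peak, chr6:113614425-113614893, was centred 9.30 kb upstream of its 5′ end. Its score was 59.12, higher than that of 33.0% of the list, and 1858 cAMP peaks had no vehicle counterpart, of which it ranked 895. The region is in intron 1 of *Brk1*, which encodes a subunit of the actin-regulating WAVE complex, 9.89 kb from the *Brk1* 5′ end and so slightly closer to *Vhl*. The nearest vehicle peak was 83.0 kb away from it, close to the TSS of *Emc3*, with a score of 52.99. Of the 201 cAMP peaks closest in rank to the *Vhl* peak, 36.8% had an overlapping vehicle peak.

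*Vegfa*, the target gene among the 8, lies on the minus strand at chr17:46016993-46032369 with no other protein-coding gene in its window. Its nearest vehicle peak was 240 kb upstream and close to the TSS of *Tjap1*. That peak scored 207.15 and ranked 274, higher than any of the peaks assigned to the 8 genes. The nearest cAMP peak was 196 kb upstream with a score of 54.54. The 38 consensus copies of its window all lay outside peaks.

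**Figure D2:**
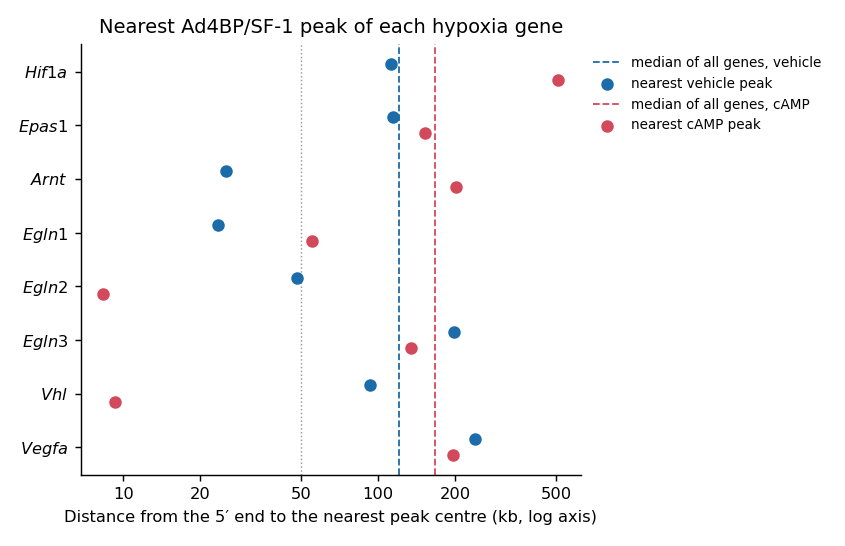
Distance in kb between the 5′ end of a gene and the centre of the nearest vehicle (blue) and cAMP (red) peak, on a log axis. Dashed lines are the medians over protein-coding genes, 120 kb over 21755 genes for vehicle and 168 kb over 21938 for cAMP. The dotted line marks 50 kb. *Egln2* and *Vhl* have cAMP peaks 8.35 and 9.30 kb away, and *Hif1a* is the farthest at 510 kb.

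The 8 genes were set against all protein-coding genes, with no test. By the 50 kb rule 3 of the 8 had a vehicle peak, where 36.7% of the 21938 genes had one. In the cAMP list 3 of the 8 had a peak, where the background was 28.9%. Both lists had a peak for 2 of the 8, with a background of 22.5%, and either list for 4 of the 8, with a background of 43.1%. The hypoxia genes are longer, with a median of 32.8 kb against 17.4 kb over all genes, and a longer gene has a longer window. Per Mb of window they held 4.61 vehicle and 3.68 cAMP peaks, where the windows of all protein-coding genes held 3.07 and 2.09. The values of the 8 genes rest on only 5 vehicle and 4 cAMP peaks in 1.09 Mb. The median distance from 5′ end to peak was 102 kb for vehicle and 144 kb for cAMP over the 8 genes. The background medians were 120 kb over 21755 genes for vehicle and 168 kb over 21938 for cAMP.

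The order of the 8 genes by distance changed between the lists. In the vehicle list *Egln1* came first at 23.5 kb, then *Arnt* at 25.3 kb, *Egln2* at 47.9 kb and *Vhl* at 92.7 kb, with *Hif1a* and *Epas1* at 112 and 114 kb, *Egln3* at 198 kb and *Vegfa* at 241 kb. In the cAMP list *Egln2* came first at 8.35 kb and *Vhl* next at 9.30 kb, closer to a peak than all but 5.65% and 6.09% of genes. *Egln1* followed at 54.9 kb, *Egln3* at 135 kb, *Epas1* at 153 kb, *Vegfa* at 196 kb, *Arnt* at 201 kb and *Hif1a* at 510 kb. None of the 8 had a peak centred within 5 kb of its 5′ end in either list. The share of all genes with a peak that close was not computed. For cAMP it cannot exceed the 5.65% of genes closer to a peak than *Egln2* at 8.35 kb. The lack of such a cAMP peak therefore does not set the 8 genes apart.

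The scores of the peaks at these genes ranged widely in the vehicle list and were low in the cAMP list. In the vehicle list they ran from 50.89 and 52.88 through 78.26 and 86.95 to 138.28, and 3 of the 5 were above the median of 72.4. In the cAMP list they ran from 51.39 through 58.53 and 59.12 to 61.57, and all 4 were below the median of 67.9. The vehicle peaks thus spanned most of their list while the cAMP peaks stayed in the lower part of theirs. The gene body held 3 of the 5 vehicle peaks, in 2 of the 8 genes, and 0 of the 4 from cAMP, where 12.6% and 9.16% of all protein-coding genes had a vehicle or a cAMP peak in the body.

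**Figure D3:**
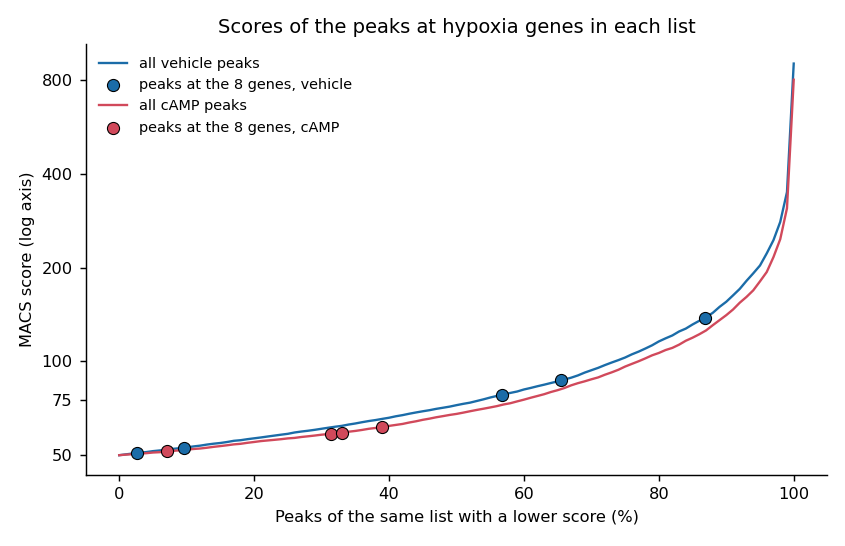
MACS score, on a log axis, against the percentage of peaks of the same list with a lower score, for all vehicle (blue line) and all cAMP (red line) peaks, with the peaks at the 8 genes as points. The vehicle points run from 2.64% to 86.9% and the cAMP points from 7.11% to 38.9%.

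A counterpart, meaning a peak of the other list that shares at least 1 bp, was found for 2 of the 5 vehicle peaks, and likewise for 2 of the 4 from cAMP. Over all peaks the shares were 37.9% for vehicle and 53.8% for cAMP. The share with a counterpart rose with the score in both lists. In the class of 50 to 60, which holds 5 of the 9 peaks at the hypoxia genes, 273 of 1609 in the vehicle list had one, as did 411 of 1424 in the cAMP list. For vehicle the share was 28.1% at 60 to 75, 57.0% at 100 to 150 and 92.3% at 200 and above, and for cAMP it was 49.6%, 84.9% and 95.9%. Of the 5 unshared peaks at the hypoxia genes 4 scored below 80, and the exception was the intron 1 peak of *Egln1*. The cAMP score divided by the vehicle score was 1.11 at the *Egln1* flank and 0.591 at the *Egln2* flank. Over all 2171 overlapping pairs the median of this quotient was 0.880, and 69.3% and 20.6% of pairs were lower than these. Scores depend on depth, which is unknown, so the quotients place the regions among the pairs and do not measure a change in binding.

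**Figure D4:**
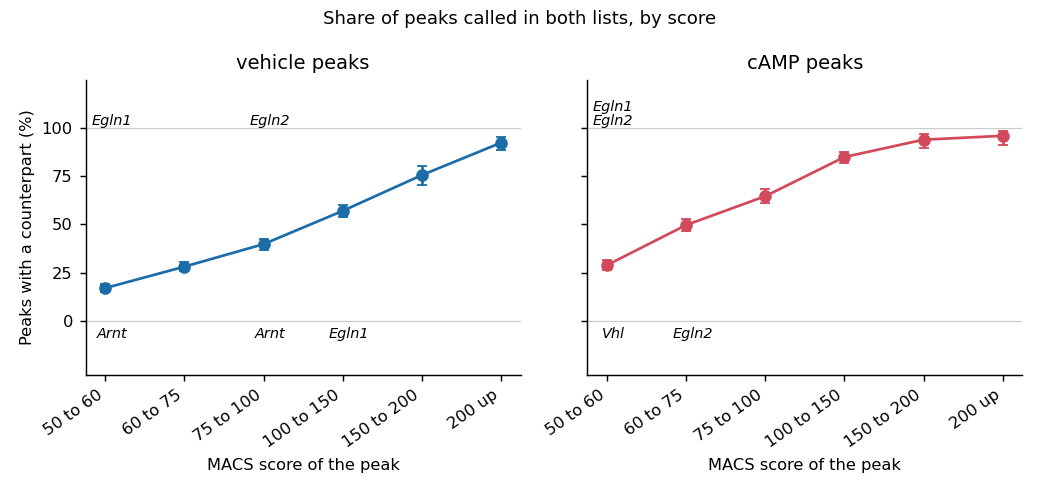
Percentage of vehicle (left) and cAMP (right) peaks with a counterpart in the other list, by class of MACS score, with exact 95% intervals that cover counting error only. Gene names at the 100 line are peaks at the 8 genes with a counterpart and names below 0 are those without, placed in their score class. The unshared *Egln1* peak stands in the vehicle class of 100 to 150, where 57.0% were shared.

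TCAAGGTC, the form in all 4 regions, made up 42.6% of the consensus copies in all vehicle peaks and 45.1% in all cAMP peaks. Stretches of 496 bp cut from the 8 windows outside peaks held the consensus in 287 of 2169 cases, or 13.2%. The core of the hypoxia response element, ACGTG or GCGTG on either strand, was found in 2 of the 5 vehicle peaks, both at *Arnt*, and in 1 of the 4 cAMP peaks, upstream of *Egln2*. Of all vehicle peaks 45.8% held this core and of all cAMP peaks 41.9%. The full cAMP response element, TGACGTCA, was in none of the 9 peaks and in 0.699% of all vehicle and 0.770% of all cAMP peaks.

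Other genes of the pathway were counted by the same rule from a list of 53. A cAMP peak was found for a larger part of the 40 targets than of the 13 other subunits, inhibitors and cofactors. Of the 8 genes 3 had one. Of the 53, 28 had a vehicle peak, 20 a cAMP peak, 16 both and 32 either, or 52.8%, 37.7%, 30.2% and 60.4%. The shares over all protein-coding genes were 36.7%, 28.9%, 22.5% and 43.1%. Among the 13 other subunits, inhibitors and cofactors, 6 had a vehicle peak and 1 a cAMP peak, and none had both. Among the 40 targets and responders, 22 had a vehicle peak, 19 a cAMP peak and 16 both. The median distance to the nearest cAMP peak was 287 kb for the former and 105 kb for the latter. Neither the difference between these groups nor that from all genes was tested. Gene length, which sets the size of the window, was not compared between these groups.

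The highest-scoring peaks of that list belonged to 5 target genes. *Tfrc*, which encodes the transferrin receptor that takes up iron, had a peak at its promoter in both lists, centred 0.147 and 0.216 kb upstream of the 5′ end. It scored 437.7 in vehicle and 337.67 in cAMP, at ranks 32 and 36, and held no consensus in either. *Car9*, which encodes a carbonic anhydrase that is a classical hypoxia marker, had a shared peak 26.5 kb from its 5′ end that scored 306.74 in vehicle and 68.68 in cAMP, but *Tpm2* has the nearer TSS. *Bnip3l*, a mitophagy receptor gene, had a shared peak 38.1 kb upstream that scored 165.23 in vehicle and 70.36 in cAMP, with the nearest TSS that of *Ppp2r2a*. *Nrp2*, which encodes a co-receptor for vascular growth factors, had a vehicle peak of 152.21 inside the gene with no counterpart and no consensus. *Cox4i2*, which encodes a subunit of cytochrome c oxidase, had a shared peak 52.4 kb from its 5′ end that scored 115.94 in vehicle and 148.69 in cAMP, with the nearest TSS that of *Bcl2l1*.

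The 7 genes with a peak among the 13 other subunits, inhibitors and cofactors are named here although the choice was made after their values had been seen. *Hif3a*, which encodes a further alpha subunit, had a vehicle peak 34.1 kb from its 5′ end that scored 64.58, with the nearest TSS that of *Ppp5c*. *Arnt2*, which encodes a relative of ARNT, had a vehicle peak 149 kb from its 5′ end that scored 58.46. *Hif1an*, which encodes the asparaginyl hydroxylase that blocks coactivator binding, had a vehicle peak centred 0.208 kb upstream of its 5′ end that scored 86.69 and held 1 consensus copy. Of the genes for ubiquitin ligase components, *Rbx1* had a vehicle peak of 79.76 at 45.6 kb from its 5′ end, *Eloc* one of 58.54 at 8.26 kb upstream, beside the TSS of *Tmem70*, and *Siah1a* had vehicle peaks of 54.99 at 0.865 kb, where *Gm10638* has the nearer TSS, and 55.28 at 42.4 kb from its 5′ end. *Cited2*, whose product competes with HIF-1α for the coactivators p300 and CBP, had cAMP peaks 3.90 and 0.611 kb upstream, scoring 88.75 and 53.21. None of these peaks had a counterpart in the other list. Over all peaks 37.9% for vehicle and 53.8% for cAMP had one. In the score class of 50 to 60 it was 273 of 1609 for vehicle and 411 of 1424 for cAMP. In the class of 75 to 100 it was 39.7% and 64.6%. A missing counterpart is thus common at low scores and is not by itself a trait of these genes. The nearest TSS of the *Hif1an* peak and of both *Cited2* peaks is that of the gene itself. This also holds, at longer distances, for the *Rbx1* peak, the *Arnt2* peak and the *Siah1a* peak of 55.28. The *Hif1an* and *Cited2* peaks lie closer to their gene's 5′ end than any peak at the 8 genes does.

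*Mgarp*, a target gene that encodes a hypoxia-upregulated mitochondrial protein, was also chosen after its values had been seen and had peaks in both lists. A region 23.6 kb from its 5′ end was shared, with scores of 78.73 in vehicle and 76.52 in cAMP. The vehicle list alone held peaks 1.41 kb upstream and 9.59 kb downstream of the 5′ end, scoring 73.14 and 68.14. The cAMP list alone held a peak 4.98 kb downstream that scored 147.76 and a peak 19.8 kb upstream, beside the TSS of *Naa15*, that scored 56.02. The paper calls this gene *Hummr* and reports a clear peak at its locus in Leydig cells, shown with and without cAMP. A fragment that the paper tested in a reporter has a stated position that includes 4.98 kb. The lack of a listed vehicle peak at that position therefore does not show a lack of binding.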

How the data were processed

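Ad4BP/SF-1 ChIP-seq reads of 1 vehicle and 1 cAMP library were mapped by the authors to mm10 with Bowtie (0.12.8 in the submitters' processing notes, which also list FastQC 0.11.5), allowing up to 3 mismatches and keeping uniquely mapped reads, so binding in repeated sequence can be missed. Peaks were called in each library with MACS, and whether the input served as control is not stated. The lists start at a score of 50, above what the stated p-value threshold allows, and a filter before deposit is not described. The deposited score is 10 times the negative log10 of the p-value.

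From the lists, positions, ranks and overlaps of at least 1 bp were computed in Python 3.11.15 (pandas 2.3.3, numpy 2.4.6), intervals with scipy 1.17.1 (exact binomial, 95%), and sequences were read with pysam 0.24.0. Plots were made with matplotlib 3.10.9. Genes were those of GENCODE M21 for mm10, with distances taken from the outermost 5′ end to the peak centre. The functions were tested on simulated data. No test was possible with 1 library per condition. Named genes were the 8 genes, the 5 other pathway genes with the highest scores, and the genes with the nearest TSS; the other pathway regulators with a peak and *Mgarp* were added once their values were known. The 8 genes and all lists were chosen with earlier results of these data known.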

Additional observations from a re-analysis of the deposited data

How the results depend on the processing

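Under the 50 kb rule, 3 genes had a vehicle peak, 3 a cAMP peak, 2 both and 4 either, from 5 vehicle and 4 cAMP peaks. With the gene body alone these became 2 for vehicle, 0 for cAMP, 0 for both and 2 for either, from 3 vehicle and 0 cAMP peaks (shares over all genes 12.6%, 9.16%, 6.42% and 15.4%), and the other pathway genes fell from 28 to 11 for vehicle and from 20 to 4 for cAMP. With 10 kb, 2 genes had a vehicle peak, 2 a cAMP peak, 0 both and 4 either, from 3 vehicle and 2 cAMP peaks (shares over all genes 19.3%, 13.95%, 10.1% and 23.2%), and the other pathway genes with a cAMP peak fell to 11. With 100 kb the vehicle peaks rose to 8, and 4 genes had a vehicle peak and 4 a cAMP peak (shares over all genes 49.4% and 41.3%). Keeping scores of at least 75 left 3 genes with a vehicle peak, 0 with a cAMP peak, 0 with both and 3 with either (shares over all genes 22.4%, 14.6%, 11.1% and 25.9%), 3 vehicle and 0 cAMP peaks, 0 vehicle peaks with a counterpart and 1 with the consensus, and 17 vehicle and 13 cAMP other pathway genes. At 100 or more, 1 gene with a vehicle peak, *Egln1*, was left, with 0 for cAMP, 0 for both and 1 for either, from 1 vehicle and 0 cAMP peaks (shares over all genes 14.6%, 9.12%, 6.70% and 17.03%), with 0 vehicle peaks that had a counterpart and 0 that had the consensus, and 9 and 9 other pathway genes. With the vehicle list shortened to the length of the cAMP list, 3 vehicle peaks were left, and 1 vehicle and 1 cAMP peak had a counterpart. Counting only peaks nearest to the gene's own TSS gave 2 genes for vehicle, 1 for cAMP, 0 for both and 3 for either, from 2 vehicle and 1 cAMP peaks (shares over all genes 16.5%, 12.4%, 8.63% and 20.3%). These follow from fewer peaks or other windows. Of 68 alternative values, the other 31 stayed within 1.5 times, including all with a 50% overlap, centres within 500 bp, the shorter or longer consensus and the central 200 bp. With scores of at least 75 or 100 no cAMP peak was left to compare. At unknown depth, weak binding below the lowest listed score cannot be seen. No paired analysis was possible because each condition has 1 library, and no replicate could be left out.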
